A study of Mus musculus with 104 samples.

Results

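The transcripts of 10 genes whose mutations cause inherited Parkinson disease or parkinsonism, other than the synuclein gene, were followed from neuron to neuron in the mouse substantia nigra. The genes are Lrrk2, Park7, Pink1, Vps35, Vps13c, Dnajc6, Synj1, Fbxo7, Pla2g6 and Uchl1. They were taken as a list of names, drawn up with earlier results of these data known, and all 10 were found among the 45808 gene rows of the count table. The disease link of Uchl1 is less settled than that of the others. Over all libraries, 9 of the 10 passed the filter on low values, which asked for a pooled level of at least 10 CPM (counts per 1000000 gene counts) and for 25% or more of either group's libraries to hold a count. Lrrk2 did not, at 8.66 CPM.

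A library holds what was drawn from 1 neuron of a brain slice into a patch pipette, amplified with Smart-seq2. The titles name 38 libraries experiment and 66 control, and the labels give dopaminergic neuron and substantia nigra for both. The study built fluorescent reporters for Lewy pathology, and its design text describes neurons of the pars compacta picked because they carried α-Syn-6H-EGFP inclusions, a tagged form of synuclein. All the mice were anaesthetised with tribromoethanol, and their slices were held in oxygenated artificial cerebrospinal fluid before collection. The strain, the age, the way the reporter was delivered, the number of animals and the kind of neuron that served as control could not be read from the labels used here.

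Since the labels name no animals, a group was taken as 1 sample, and the groups were compared without a test. Intervals on levels and ratios are 95% intervals for counting error only. They leave out the much wider spread between neurons, which is given as lowest, median and highest library, and the reads carry no molecular identifiers. Intervals on shares of libraries with a count take each library as an independent draw. The labels do not show that, so these are descriptions only. Values are also given within 2 title sets, read from the letter case of control titles and the listing of the records, and not called batches by the labels. In set 1 were 21 experiment and 31 control libraries, and in set 2 were 17 experiment and 35 control libraries.

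Gene counts per library ran between 116567 and 3094036 in experiment and between 153770 and 2577694 in control. Thinning to 400000 counts left out 4 experiment and 6 control libraries, and the median number of genes detected was then 6915.5 over 34 experiment libraries and 8459.5 over 60 control libraries. Synthetic ERCC spike-in RNAs had a median share of 0.421% in experiment and 0.251% in control, and mitochondrial-genome genes one of 4.33% in experiment and 2.72% in control. The 15 dopaminergic markers examined were all expressed, with a median summed level of 19469 CPM in experiment (range 999 to 30032) and 25005 CPM in control (2303 to 35962). Of these 15, Th, Foxa2, Lmx1b and Dlk1 were at least 1.5-fold lower in experiment and Aldh1a1 was that much higher, by pooled and equally weighted levels alike. The summed level of the glial markers (astrocyte, microglial, oligodendrocyte) was 2436 CPM in the median experiment library and 1532 CPM in the median control library. Of the expressed markers, 8 of 10 for astrocytes, 3 of 9 for microglia and 1 of 8 for oligodendrocytes were at least 1.5-fold higher in experiment, and 0 were that much lower. For GABAergic neurons 3 of 5 expressed markers were also that much higher. Markers of oligodendrocyte precursors, which are not in the glial sum, went the other way. Their median summed level was 27.7 CPM in experiment and 72.8 CPM in control, and 1 of 2 expressed ones was that much lower. Of all expressed genes, 7.77% were that much higher and 1002 of 9113 that much lower. The part of these differences in the results on the 10 genes was not tested. A single library held less than 1000 CPM of Th, the gene of the rate-limiting enzyme of dopamine synthesis, and so went against its label. This was experiment 27, with 138 CPM of Th and 17960 CPM of glial markers. Without it, the log2 ratio of Pink1 was 0.02 in place of 0.11, and those of the other 9 genes kept their direction.

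Most of the 10 proteins belong to a few linked processes. PINK1 is a kinase that gathers on damaged mitochondria and, with the ubiquitin ligase Parkin, marks them for removal, while DJ-1, the product of Park7, protects against oxidative stress. Auxilin, encoded by Dnajc6, and synaptojanin 1, encoded by Synj1, strip clathrin coats from recycled synaptic vesicles, and VPS35 is the core of the retromer, which returns cargo from endosomes. Dopaminergic neurons of the substantia nigra carry very long branched axons with large numbers of release sites, and they are lost in Parkinson disease.

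Uchl1 and Lrrk2 stood at the extremes of the 10 levels, and the stretch just upstream of each gene is shown so that this contrast can be read beside its DNA. Both come from the RefSeq promoter table for GRCm38.p6, plus strand, and end at the base before the GENCODE gene start. Capitals mark GGGCGG, the GC box, which was searched on both strands together with TATAAA and CCAAT. The Lrrk2 stretch is chr15:91672974-91673174 and the Uchl1 stretch chr5:66675871-66676090.
Lrrk2: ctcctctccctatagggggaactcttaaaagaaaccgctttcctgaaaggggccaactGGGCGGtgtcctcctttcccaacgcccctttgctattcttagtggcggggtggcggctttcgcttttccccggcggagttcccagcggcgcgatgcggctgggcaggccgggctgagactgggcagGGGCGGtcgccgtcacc
Uchl1: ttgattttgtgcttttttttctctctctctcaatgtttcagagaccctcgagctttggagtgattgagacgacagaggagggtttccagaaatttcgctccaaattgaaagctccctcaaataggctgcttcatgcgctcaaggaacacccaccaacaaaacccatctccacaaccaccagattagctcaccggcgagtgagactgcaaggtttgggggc
The gene with the lowest level held the GC box at 2 places, and the gene with the highest level held none of the motifs. In the full windows of 250 bases before each start, the GC content was 67.6% for Lrrk2 and 48.8% for Uchl1, against a median of 52.4% over 32851 mouse windows. GGGCGG was present on either strand in 32.7% of those windows, TATAAA in 12.4% and CCAAT in 33.9%. Of the other genes with windows, Park7, Pink1 and Pla2g6 held the GC box and Fbxo7 did not. Dnajc6 and Synj1 held it in some of their windows only. Park7 and Pink1 stood next after Uchl1 in level and Fbxo7 stood low, so the contrast between Lrrk2 and Uchl1 did not run through the list. These matches are a description of letters and not of binding sites.

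Levels of different genes were compared per kilobase of exon, scaled to a common sum, for the gene rows that matched a GENCODE M21 gene model, which held 94.0% of the gene counts. On this scale Uchl1 stood highest, at 2109.7 in experiment and 2735 in control. Park7 followed at 459.7 in experiment and 528 in control, Pink1 at 286 in experiment and 270.2 in control, and Vps35 at 117 in both groups. The uncoating genes came next, Dnajc6 at 83.1 in experiment and 112 in control and Synj1 at 81.6 in experiment and 108 in control. Fbxo7 stood at 22.4 in experiment and 24.1 in control, and Pla2g6 at 15.3 in experiment and 17.7 in control. Vps13c, at 2.46 in experiment and 4.44 in control, and Lrrk2, at 1.63 in experiment and 2.89 in control, closed the order. The order was the same in both groups and spanned about 3 orders of magnitude.

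Some neighbours in this order could not be separated neuron by neuron. Per length, Uchl1 led the 10 genes in 37 of the 38 experiment libraries and in all 66 control libraries, the exception being a library led by Park7. Dnajc6 exceeded Synj1 in 20 experiment libraries of 38 and 37 control libraries of 66. Vps35 exceeded Dnajc6 in 26 of 38 experiment libraries and in 28 of 66 control libraries, although its pooled level was above Dnajc6 in both groups. Pla2g6 exceeded Vps13c in 16 experiment libraries and was below it in 15, with 7 tied. The plot of levels per length sets each gene beside its relatives.

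**Figure D1:**
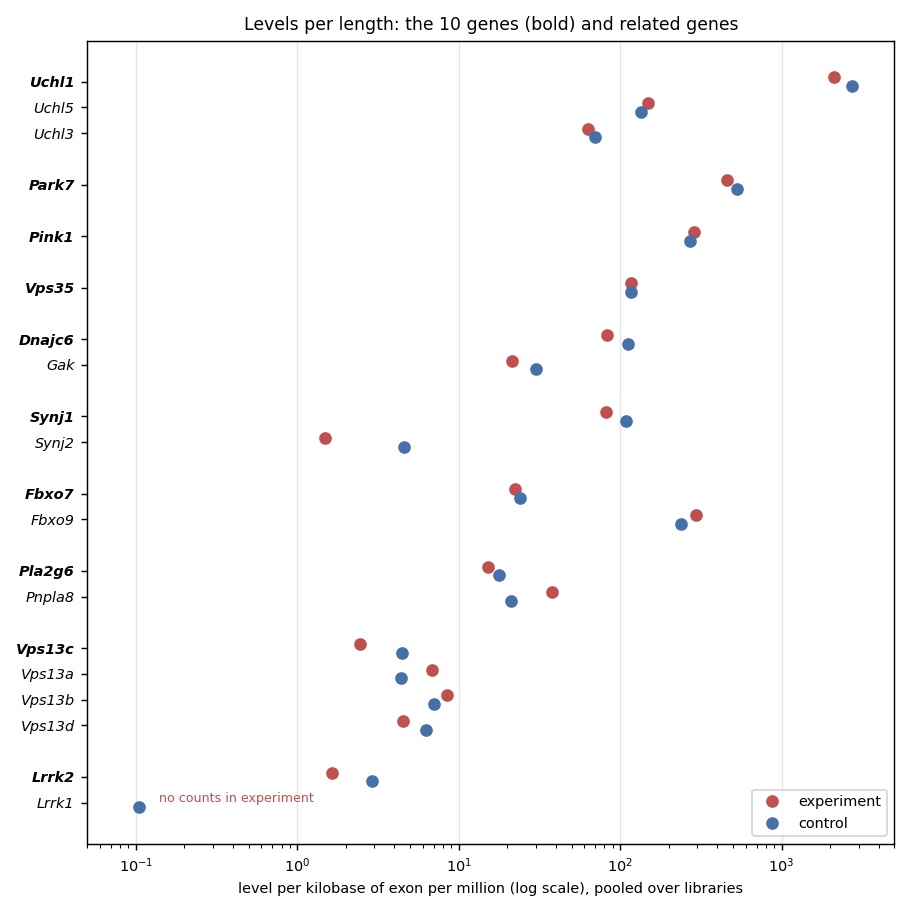
Pooled level per kilobase of exon, scaled to a common sum, on a log axis, for the 10 genes in bold and their related genes below each, with experiment in red and control in blue. Uchl1 sits at 2109.7 in experiment and 2735 in control, and Lrrk2 at 1.63 in experiment and 2.89 in control.

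Among the genes of mitochondrial quality control, Pink1 and Park7 were close to even between the groups. Pink1 lies on chromosome 4 (138313409 to 138326307, minus strand). It had a lowest, median and highest level of 0, 207 and 699 CPM in experiment libraries and 0, 207 and 667 CPM in control libraries. The medians were equal at this precision and the groups overlapped throughout, with 19 of 38 experiment libraries below the control median. Pooled, Pink1 stood at 232 CPM in experiment against 215 in control, a ratio of 1.08 (1.05 to 1.11), while the mean that weights libraries equally gave 0.925. It had no count in 4 experiment libraries, of which experiment 7 had 1559777 gene counts, and in 2 control libraries.

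Park7 lies on chromosome 4 (150897133 to 150914437, minus strand). Its lowest, median and highest levels were 29.5, 334 and 699.6 CPM in experiment and 42.1, 373 and 909 CPM in control. It was counted in every library, and 24 of 38 experiment libraries lay below the control median within overlapping ranges. The ratio of the pooled levels, 345 CPM in experiment against 389.5 in control, was 0.887 (0.869 to 0.905), and it was 0.869 in set 1 and 0.928 in set 2.

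Fbxo7 encodes an F-box protein, a substrate-binding part of a ubiquitin ligase that has been tied to mitophagy, and lies on chromosome 10 (86021972 to 86051873, plus strand). Library levels had a lowest, median and highest of 0, 17.3 and 163 CPM in experiment and 0, 35.7 and 138 CPM in control. The median experiment library was the lower one, yet the highest single library was experiment 4. Pooled levels of 42 CPM in experiment and 44.4 CPM in control gave a ratio of 0.946 (0.892 to 1.004). The title sets stood on opposite sides, with 1.16 (1.07 to 1.26) in set 1 and 0.604 (0.546 to 0.668) in set 2, and the difference between the sets was not tested.

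Uchl1 encodes a ubiquitin hydrolase that is among the most abundant proteins of neurons, and lies on chromosome 5 (66676091 to 66687234, plus strand). Its pooled level ranked 71 among the 9113 expressed genes. The lowest, median and highest libraries held 384, 971 and 3129.9 CPM in experiment and 558, 1145 and 2887 CPM in control. The highest library of all was experiment 43, and 27 of 38 experiment libraries lay below the control median. Pooled, 1043 CPM in experiment against 1329 in control gave a ratio of 0.785 (0.776 to 0.794), with 0.796 in set 1 and 0.850 in set 2. The antisense gene Uchl1os, which shares 295 exon bases, had 52 counts beside 140713 for Uchl1.

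Over all libraries, both genes of synaptic vesicle uncoating stood lower in experiment. Dnajc6 (chromosome 4, 101496648 to 101642799, plus strand) had 0, 138 and 710.3 CPM as lowest, median and highest in experiment and 0, 201 and 791 CPM in control. Below the control median were 24 of 38 experiment libraries. The pooled ratio, 149 CPM in experiment against 197 in control, was 0.754 (0.732 to 0.778), and it was 0.712 in set 1 and 0.757 in set 2. Among the 12 experiment and 40 control libraries with an ERCC share at or below the median, the Dnajc6 log2 ratio was -0.087 in place of -0.41. The median of all expressed genes was -0.092 there, and Synj1 was at -0.24 in place of -0.38. Dnajc6 had no count in experiment 3, 24 and 43 and in control 42. Control 42, with 2098427 gene counts and the highest Th level of all libraries, 27011 CPM, also had no Pink1 count.

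Synj1 (chromosome 16, 90936092 to 91011308, minus strand) was counted in every neuron. The lowest, median and highest levels were 9.70, 201 and 453 CPM in experiment and 39.96, 247 and 588 CPM in control. It lay below the control median in 28 of 38 experiment libraries, more than any other of the 10 genes, although the ranges overlapped. A pooled 199.9 CPM in experiment against 261 in control gave a ratio of 0.766 (0.747 to 0.787), which was 0.807 in set 1 and 0.683 in set 2. Experiment 46 held the lowest Synj1 level and, as described below, the highest experiment level of Lrrk2.

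Among the genes of endosomal sorting and lipid transport, Vps35 was near even and Vps13c stood lower. Vps35 (chromosome 8, 85260392 to 85299802, minus strand) had 83.6, 329.7 and 894 CPM as lowest, median and highest in experiment and 3.63, 294 and 734 CPM in control. Here the experiment median was the higher one, and 5 control libraries lay below the lowest experiment library, with 3.63 CPM in control 28, 14.4 in control 2, 16.7 in control 23, 31 in control 32 and 79.97 in control 53. The pooled ratio, 316 CPM in experiment against 311 in control, was 1.02 (0.995 to 1.04), and the equally weighted ratio was 1.21. It was the one gene of the 10 whose equally weighted ratio exceeded 1. Vps35 shares 171 exon bases with Orc6 on the other strand, which had 2538 counts beside 35835 for Vps35, and the strand setting of the counting is not given.

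Vps13c encodes a large protein that bridges membranes and carries lipids between them, and lies on chromosome 9 (67840396 to 67995638, plus strand). Its lowest, median and highest levels were 0, 5.11 and 43.4 CPM in experiment and 0, 14.2 and 136 CPM in control. The groups overlapped, and 27 of 38 experiment libraries lay below the control median. Pooled levels of 12.1 CPM in experiment and 21.5 CPM in control gave a ratio of 0.564 (0.509 to 0.625), and the equally weighted ratio was 0.500. The ratio was 0.467 (0.397 to 0.547) in set 1 and 0.672 (0.586 to 0.769) in set 2. Among the 13 experiment and 39 control libraries that reached the overall median of genes detected, its log2 ratio was -0.31 in place of -0.83.

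Lrrk2, a large kinase that phosphorylates Rab proteins on endolysosomal membranes, was the sparsest of the 10 and the one whose groups differed most in the share of neurons with a count. It lies on chromosome 15 (91673175 to 91816120, plus strand). It was counted in 9 of 38 experiment libraries and 32 of 66 control libraries, so the median was 0 CPM in both groups. The highest library reached 89.9 CPM in experiment, in experiment 46, and 140.4 CPM in control, in control 51. The other 8 experiment libraries with a count held 70.3 CPM in experiment 39, 24.5 in experiment 33 and 14.6 in experiment 37, and the remaining 5 held between 1.64 and 8.58 CPM.

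After thinning to 400000 counts, Lrrk2 had a count in 6 of 34 experiment libraries, 17.6% (exact binomial interval 6.76 to 34.5), and in 26 of 60 control libraries, 43.3% (30.6 to 56.8). Fewer genes of all kinds were detected in experiment at that depth, and the part of this in the Lrrk2 share was not tested. The pooled levels of 5.85 CPM in experiment and 10.2 CPM in control gave a ratio of 0.575 (0.494 to 0.666), and equal weights gave 0.519. Experiment 46 alone supplied 59.1% of the experiment counts, and without it the ratio was 0.244. In set 1 the ratio was 0.0814 (0.0490 to 0.128), from 20 counts in experiment and 292 in control. In set 2 it was 1.20 (1.02 to 1.42), with 0.979 by equal weights and 0.464 without experiment 46, so the direction in set 2 rested on a single neuron. The share of libraries with a count was 4 of 21 experiment against 18 of 31 control in set 1, and 5 of 17 experiment against 14 of 35 control in set 2.

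Pla2g6 encodes a calcium-independent phospholipase that remodels membrane lipids, and lies on chromosome 15 (79286228 to 79328390, minus strand). The lowest, median and highest levels were 0, 0 and 197 CPM in experiment and 0, 1.51 and 151 CPM in control. It was counted in 16 experiment libraries of 38 and 34 control libraries of 66, and where counted the median was 45.8 CPM in experiment against 37.4 in control. The pooled ratio, 25.2 CPM in experiment against 28.6 in control, was 0.879 (0.815 to 0.948). In set 1 it was 0.856 with all libraries, 0.600 without experiment 13 and 1.11 without control 3.

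**Figure D2:**
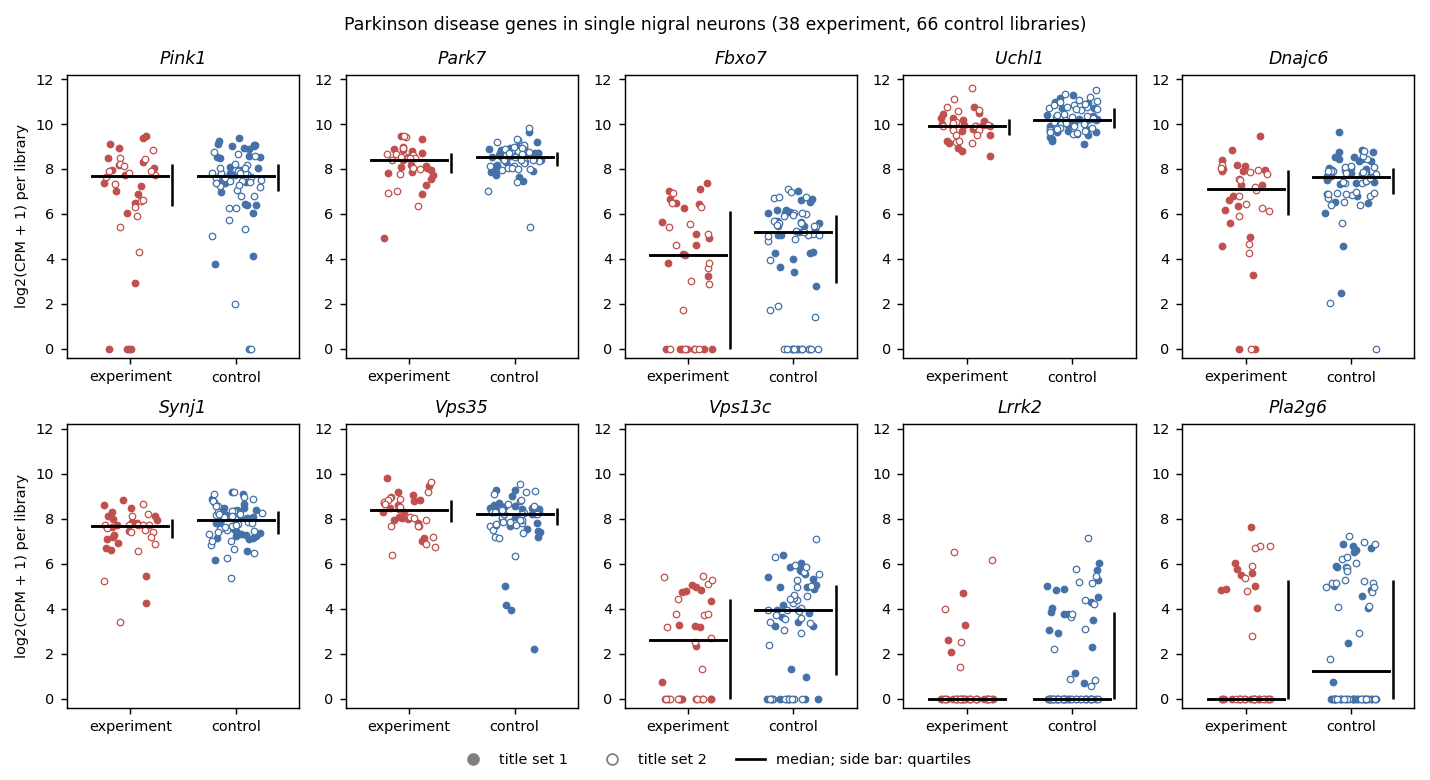
Level of each of the 10 genes in every library as log2(CPM + 1), with experiment left and control right, filled points for title set 1, open points for set 2, a line at the median and a side bar over the quartiles. The ranges of the groups overlap for every gene, Uchl1 is the highest, and most Lrrk2 points lie at 0.

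Over the 10 genes, 2 stood at least 1.5-fold lower in experiment on pooled and on equally weighted levels alike, Lrrk2 and Vps13c, and 0 stood that much higher. Of the 9 expressed genes, 1 was past the fold downward, or 11.1%, while 1002 of all 9113 expressed genes, 11%, were past it downward and 7.77% upward, so this count was at the background. In title set 1, 16.6% of expressed genes were at least 1.5-fold lower by both weightings and 9.69% higher, and Vps13c was the one expressed gene of the 9 among them. In title set 2 the shares were 17.5% and 14.6%, and 0 of the 9 were past the fold.

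Smaller differences of the 9 ran mostly downward. Lower by both weightings over all libraries and by pooled level within each set, whatever the size, were 6 of the 9 expressed genes, 66.7%, namely Park7, Vps13c, Dnajc6, Synj1, Pla2g6 and Uchl1, against 29.2% of all expressed genes. Higher on the same terms were 0 of 9, against 22.5%. Within set 1 the equally weighted ratio of Pla2g6 was 1.03. The median log2 ratio of the 9 expressed genes was -0.19 pooled and -0.17 with equal weights, while the medians of all expressed genes were -0.03 and -0.02. With Lrrk2 the median was -0.27 pooled and -0.24 with equal weights. An interval from the ordered pooled values of the 10 genes ran from -0.80, the value of Lrrk2, to 0.02, that of Vps35. The genes were chosen by name, so it describes their spread only. In the plot of ratios by weighting and title set, Uchl1, Dnajc6 and Synj1 keep to a narrow band below 0 and Lrrk2 is the widest.

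**Figure D3:**
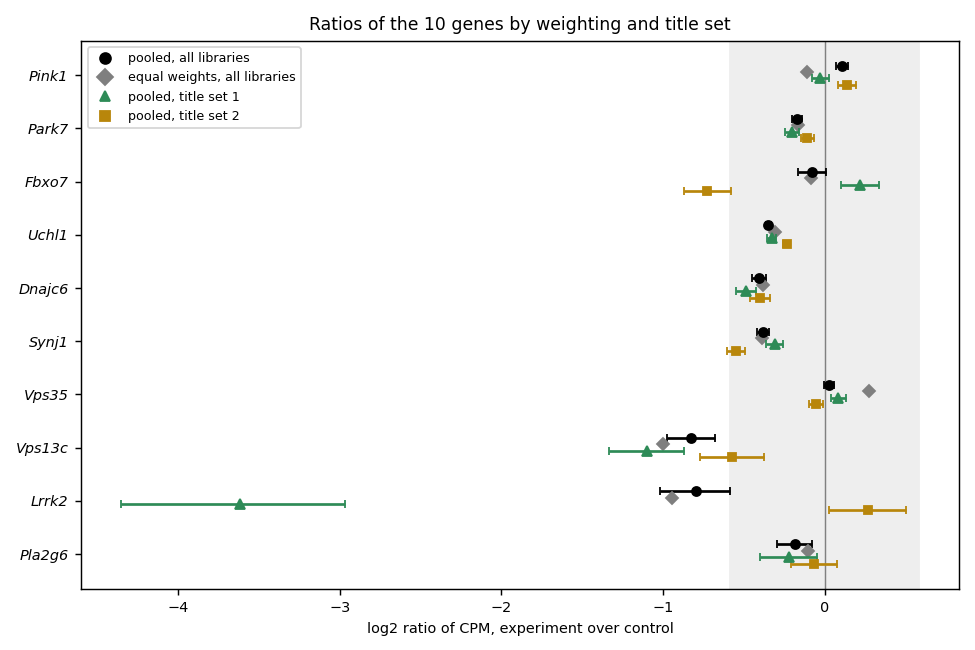
Log2 ratio of experiment over control for each gene, pooled over all libraries (circles), with equal weights (diamonds) and within title set 1 (triangles) and set 2 (squares), with 95% counting intervals on the pooled values and a grey band out to 1.5-fold. Lrrk2 stands at -3.62 in set 1 and 0.27 in set 2, and Fbxo7 stands at 0.22 in set 1 and -0.73 in set 2, while Dnajc6 holds -0.49 in set 1 and -0.40 in set 2.

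The summed astrocyte, microglial and oligodendrocyte markers were higher in experiment, as given above. The ratios were therefore also taken without the libraries that held most of them. Without the 26 libraries highest in glial markers, which left 24 experiment and 54 control, the log2 ratio was -1.78 for Lrrk2, -0.68 for Vps13c, -0.45 for Park7, -0.32 for Synj1 and -0.32 for Fbxo7. Dnajc6 was at -0.22 in place of -0.41 and Uchl1 at -0.18 in place of -0.35. Pla2g6 was at 0.25, Vps35 at 0.21 and Pink1 at -0.10 in that comparison. The median of the 10 genes was -0.27 there too.

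The number of these genes seen in a neuron was also smaller in experiment, as was the number of genes of all kinds. At 400000 counts the median number of all genes detected was 6915.5 in experiment and 8459.5 in control. The part of this in the counts of the 10 was not tested. At 400000 counts per library the median experiment library held 8 of the 10 and the median control library 9, and all 10 were seen in 2 of 34 experiment libraries against 13 of 60 control libraries. Park7, Vps35, Synj1 and Uchl1 were counted in every library of both groups. Pink1 and Dnajc6 were each missed in 2 of 34 experiment libraries and 1 of 60 control libraries. Vps13c was present in 58.8% of experiment libraries (40.7 to 75.4) against 75% of control libraries (62.1 to 85.3). Fbxo7 was present in 76.5% in experiment (58.8 to 89.3) against 83.3% in control (71.5 to 91.7), and Pla2g6 in 44.1% in experiment (27.2 to 62.1) against 53.3% in control (40 to 66.3). These intervals take each library as an independent draw, so they describe each share and do not compare the groups.

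**Figure D4:**
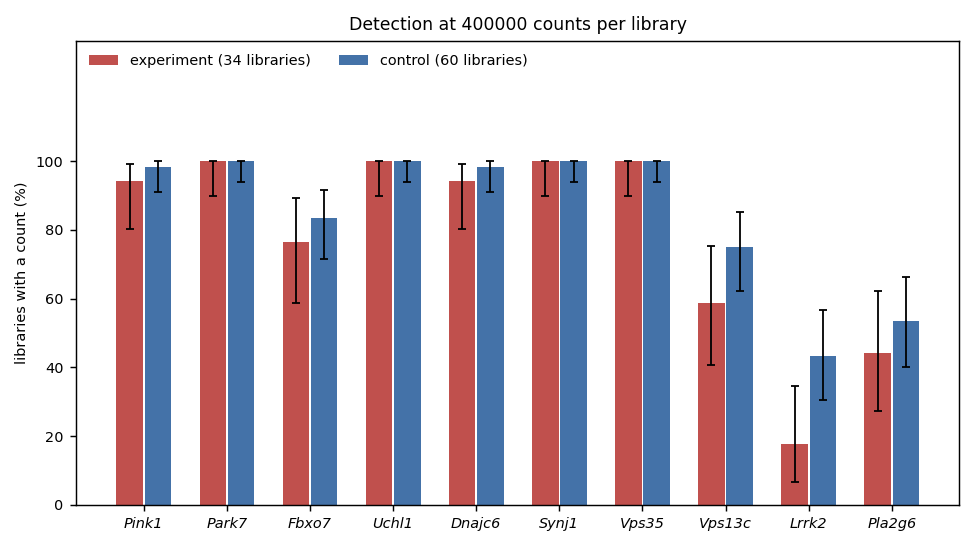
Share of libraries with a count for each gene after thinning to 400000 counts, in percent, for 34 experiment libraries (red, left of each pair) and 60 control libraries (blue), with exact 95% binomial intervals. Lrrk2 is at 17.6% in experiment and 43.3% in control, and Park7, Uchl1, Synj1 and Vps35 are at 100% in both groups.

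Variation from neuron to neuron was described by the coefficient of variation of CPM, the SD over the mean, beside the median coefficient of expressed genes within 1.5-fold of the same pooled level. Synj1 varied less than such genes, with 0.518 against a median of 0.707 over 813 genes in experiment and 0.501 against 0.590 in control. Park7 did too, at 0.497 against 0.599 in experiment and 0.384 against 0.510 in control. Within title set 2 the coefficient of Synj1 was not lower in control, at 0.521 against 0.512, but was in experiment, at 0.506 against 0.639. Vps13c, at 1.24 against 1.97 in experiment and 1.14 against 1.69 in control, was also below the lower quartile of its like-level genes in both groups. Pink1 lay above the median of its like-level genes, at 0.836 against 0.721 in experiment and 0.692 against 0.611 in control. Within title set 2 Pink1 was below that median in experiment, at 0.623 against 0.664, and above it in control, at 0.564 against 0.529. The coefficient of Lrrk2 was 3.16 in experiment and 1.96 in control. Over both title sets together each of the 10 genes had the higher coefficient in experiment, as did the medians of the like-level genes for each of them. Within set 1 the coefficient was lower in experiment for Uchl1, at 0.362 against 0.422 in control, and for Vps35, at 0.492 against 0.534 in control. Within set 2 it was lower in experiment for Synj1, at 0.506 against 0.521 in control, and for Vps13c, at 1.14 against 1.24 in control.

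The 10 genes showed little joint variation. Across all libraries of both groups, after the mean of each group within each title set was removed from log2(CPM + 1), the 45 pairwise Pearson correlations had a median of 0.04 and ran between -0.16 and 0.34. These are descriptions of libraries that share depth and detection, without a test. The highest was that of Dnajc6 with Fbxo7, which was 0.51 within experiment and 0.20 within control. The rank correlation of this pair was 0.16, and its Pearson correlation was 0.18 once the number of genes detected was also removed. The neuron-to-neuron level of Fbxo7 correlated at 0.47 with the number of genes detected, and that of Dnajc6 at -0.51 with the ERCC share, where the medians over all expressed genes were 0.26 and -0.18. The pair Synj1 and Uchl1, at 0.25, was 0.23 after that removal, the highest of the 45.

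**Figure D5:**
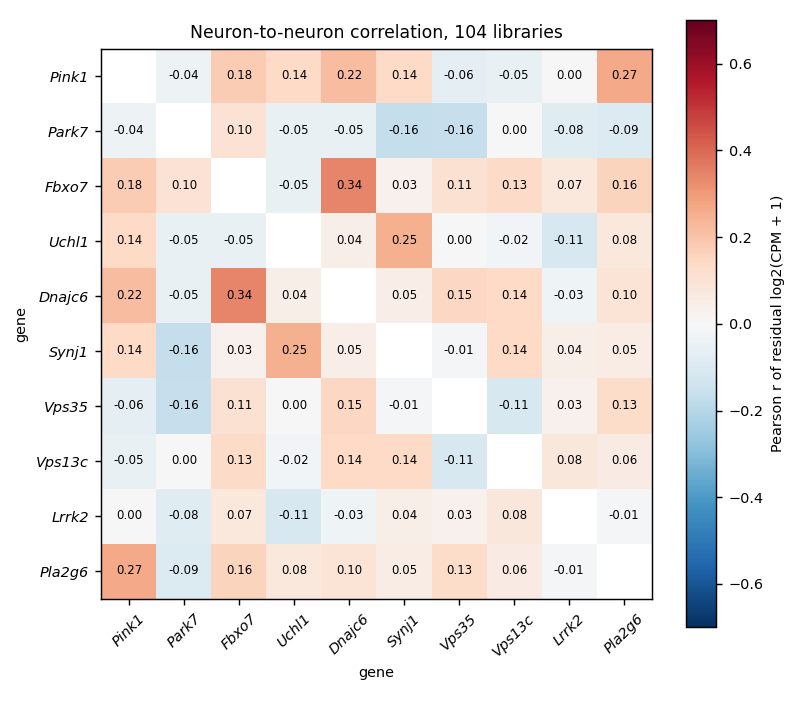
Pearson correlation of each pair of the 10 genes over the 38 experiment and 66 control libraries, on log2(CPM + 1) after removal of the mean of each group within each title set, with red for positive and blue for negative values. A single pair, Dnajc6 and Fbxo7 at 0.34, exceeds 0.3.

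For the 6 of the 10 counted in 75% or more of the libraries of each group, the 3 most alike of 8701 expressed genes outside the 10 were taken. The highest of so many are large by selection. Rank correlations ran between 0.19 and 0.65 over the 18 pairs and, among those of Park7, Vps35 and Dnajc6, were 0.22 for Gadd45gip1, 0.32 for Prkar1a, 0.26 for Ghitm, 0.24 for Tmem30a, 0.19 for Uba1 and 0.31 for Npepps. Uchl1 ran with Ppia, the cyclophilin A gene, at 0.67, with the glycolytic gene Gapdh at 0.57 and with Chchd2, a mitochondrial protein gene itself linked to Parkinson disease, at 0.55. Park7 ran with 2 subunit genes of respiratory complex I, Ndufa2 at 0.49 and Ndufb10 at 0.46, and with the mitochondrial ribosome partner Gadd45gip1 at 0.47. Pink1 ran with the septin gene Sept5 at 0.57, the iron-sulfur assembly gene Isca1 at 0.56 and Rab24 at 0.53. Vps35 ran with Prkar1a, a regulatory subunit of protein kinase A, at 0.50, Ghitm at 0.46 and the lipid flippase subunit Tmem30a at 0.46. Dnajc6 ran with the fatty acid synthase Fasn at 0.57, the ubiquitin-activating enzyme Uba1 at 0.56 and the peptidase Npepps at 0.55. Synj1 ran with Nus1 at 0.46 and with Thoc1 and the adaptor kinase Aak1 at 0.43 each.

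Relatives of the 10 genes, named whatever their values, gave a measure of what else of each family was present. Gak, the widely expressed relative of Dnajc6, was lower with a ratio of 0.726 (0.686 to 0.769), and Dnajc6 exceeded it 3.86-fold per length in experiment and 3.72-fold in control. Synj2 was sparse, seen in 9 experiment libraries of 38 and 25 control libraries of 66, with a ratio of 0.330 (0.275 to 0.393). Lrrk1 had 0 counts in experiment, where 3 counts over the group would be 0.0747 CPM, and a count in 3 control libraries at a pooled 0.323 CPM. Uchl3 and Uchl5 had ratios of 0.925 and 1.13 and stayed below Uchl1 per length in every library.

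By pooled level per length, Fbxo9, Pnpla8, Vps13b and Vps13d stood higher in both groups than the Parkinson gene of their family. Fbxo9 exceeded Fbxo7 in 36 experiment libraries of 38 and 63 control libraries of 66, with a ratio of 1.26. Pnpla8, another calcium-independent phospholipase, stood at 37.7 per kilobase in experiment and 20.99 in control, and exceeded Pla2g6 in 26 experiment libraries of 38 and 40 control libraries of 66. Its ratio was 1.83 (1.77 to 1.89), with 2.04 in set 1 and 1.24 in set 2. Per kilobase, beside the Vps13c level given above, Vps13b stood at 8.51 in experiment and 7.01 in control and exceeded Vps13c in 27 experiment libraries of 38 and 33 control libraries of 66. Vps13d stood at 4.52 in experiment and 6.24 in control, and exceeded Vps13c in 15 experiment libraries of 38 and 36 control libraries of 66. In the median experiment library Vps13d was at 0.499 and Vps13c at 0.992. Vps13a stood at 6.83 in experiment and 4.41 in control, and exceeded Vps13c in 20 experiment libraries and 28 control libraries. Vps13b had a ratio of 1.24. The ratio of Vps13a was 1.57 pooled, 1.27 with equal weights, 2.33 in set 1 and 1.14 in set 2. That of Vps13d was 0.736, with 0.463 in set 1 and 1.05 in set 2. Of the 8 expressed relatives, 1 was at least 1.5-fold higher by both weightings, Pnpla8, and 0 lower.

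Lists of partner genes were read against the shares of all expressed genes past the fold given above and their median log2 ratio of -0.03. Of 29 expressed genes of clathrin endocytosis and uncoating, 4 were at least 1.5-fold lower and 0 higher, and 19 were lower and 5 higher by both weightings at any size. Of all expressed genes, 45.8% were lower and 40.9% higher by that rule. The median log2 ratio was -0.26 by either weighting, with -0.30 in set 1 and -0.26 in set 2. The adaptor subunits Ap2a2, at 190.5 CPM in experiment against 310.5 in control (ratio 0.613), and Ap2a1, at 134 CPM in experiment against 213 in control (0.628), were below the control median in 32 and 28 of 38 experiment libraries. The other genes past the fold were Fcho2, at 0.401, and the endophilin Sh3gl3, at 0.658, and Fcho2 was at 0.216 in set 1 and 0.641 in set 2. The retromer, sorting nexin and WASH list had a median of 0.05, with 1 of 21 expressed genes past the fold in each direction. M6pr, a mannose 6-phosphate receptor that the retromer helps recycle, had a ratio of 0.577, and the WASH subunit gene listed as E430025E21Rik, now Washc5, 2.00. Tbc1d5 had 1.42 pooled and 2.28 with equal weights. The gene listed as 9030624J02Rik, now Vps35l, had 0.736, with 0.945 in set 1 and 0.541 in set 2.

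Partners of PINK1 and Parkin were even as a list, with 2 of 30 expressed genes past the fold downward, 1 upward and a median of 0.00. Mfn1, a mitochondrial fusion gene, had a ratio of 0.582, with 0.839 in set 1 and 0.459 in set 2, and Usp30, a deubiquitinase of mitochondria, 0.639. The mitophagy receptor Bcl2l13 had 1.91, with 2.36 in set 1 and 1.03 in set 2. Sqstm1, the autophagy receptor p62, stood at 853 CPM in experiment against 572 in control, a ratio of 1.49 that was just short of the fold, and 8 of 38 experiment libraries were below the control median. Of 23 expressed partners and Rab substrates of LRRK2, 3 were past the fold downward and 0 upward, with a median of -0.02. Rab3b had a ratio of 0.451, Rab12 0.580 and Rab8b 0.599, while Rab5a was at 0.628 pooled and 0.668 with equal weights.

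The remaining partner lists held genes past the fold in both directions or in neither. The VPS13 and lipid transfer list had a median of 0.08 over 16 genes, with Vapb, an anchor on the endoplasmic reticulum, at 0.464 and the tethering gene Esyt2 at 1.75. Vapb was at 0.224 in set 1 and 0.769 in set 2. C2cd2l was at 0.703 and the autophagy gene Atg9a at 0.694. None of 15 genes of the F-box ligase list was past the fold, with a median of 0.16 pooled and 0.02 with equal weights. In it Nedd8 had a ratio of 0.691, Skp1a 0.780, Birc2 0.816 and Fbxl5 1.19, and Birc2 was at 0.503 in set 1 and 1.16 in set 2. Among 18 ubiquitin precursor and deubiquitinase genes, Usp25 at 0.525 and Usp8 at 0.617 were past the fold downward and Usp47 at 1.62 and Usp46 at 1.52 upward, with a median of -0.11. In set 1 that median was 0.04 and in set 2 -0.31. Usp47 was at 1.21 in set 1 and 1.99 in set 2.

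Of 15 phospholipase and phospholipid remodelling genes, 2 were past the fold downward and 1 upward, with a median of -0.20 pooled and 0.07 with equal weights. Mboat1 had a ratio of 0.417, the cardiolipin synthase Crls1 0.387 and Lpgat1 0.667, which the equally weighted ratio of 0.677 left short of the fold. Crls1 was at 0.211 in set 1 and 0.612 in set 2. The list of DJ-1 partners and oxidative defence, 21 genes, had a median of -0.12 with 1 past the fold each way. Gclc, which makes the first step of glutathione synthesis, had a ratio of 0.430. Hspa9, the mitochondrial chaperone mortalin, had 1.69, although it was 0.878 in set 1 and 2.63 in set 2. Txnrd2 had 0.738.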

How the data were processed

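The authors deposited raw read counts for each gene symbol and single-neuron library in 1 table. Per the submitters' processing notes, STAR 2.5.3a, featureCounts 1.5.3 and the build mm10 were used, in roles that are not stated. Annotation, strandedness and the handling of multi-mapping reads are not given in these sources. The 92 ERCC rows were kept out of library totals, and 0 libraries fell under a minimum of 50000 gene counts and 1000 genes.

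Groups come from the titles. The 2 title sets follow the spelling of control titles, capitalised up to number 37, and place experiment titles numbered 36 and above with the lower-case controls, as the records do. Counts were summed per group and divided by the group's total for a pooled CPM with an exact Poisson interval. Intervals of ratios come from the exact binomial split of the 2 sums. A gene was called past 1.5-fold only if both weightings were. No p-value was computed. A group at 0 counts was set to a floor of 3 counts for ratios.

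Named genes were the 10, their relatives, up to 4 expressed genes per partner list with the largest ratio by the smaller of both weightings, and the 3 most correlated genes of each of the 10 counted in at least 75% of each group. One gene of a partner list is not reported here. Unnamed gene models, pseudogenes, ribosomal protein and mitochondrial genes were left out of the last search. The 10 genes and all lists were chosen with earlier results of these data known. Exon lengths and positions come from GENCODE M21.

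Python 3.11.15, numpy 2.4.6, pandas 2.3.3, scipy 1.17.1 and matplotlib 3.10.9 were used. The scaling alternatives used edgeR 4.0.16 (TMM) and DESeq2 1.42.0 (poscounts size factors) in R 4.3.3, without their tests. Other alternatives changed the weighting, scale, pseudocount, depth, set of libraries and filter. The calculation of the pooled ratio was checked on simulated counts with 200 changed genes. Genes and libraries were drawn independently there, without animals or title sets, so the check covers the calculation only.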

Additional observations from a re-analysis of the deposited data

How the results depend on the processing

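The count of genes at least 1.5-fold lower was 2 of the 10 as reported, beside 11% of all expressed genes. The 10 include Lrrk2, which did not pass the filter on low values, and the shares cover only genes that did. Of the 9 expressed genes, 1 was that much lower, or 11.1%. The count over the 10 was 5 on the scale of mean log2(CPM + 1), beside 36.4% of all expressed genes, whose median was itself at -0.38. With a pseudocount of 10 it was 1, beside 10.2%. There Dnajc6 at -0.66 was past the fold and Lrrk2 at -0.37 and Vps13c at -0.51 were not. Among libraries at or above the median of genes detected it was 2, beside 15.8%, namely Lrrk2 and Fbxo7, with Vps13c at -0.31. It was 0 in title set 2, beside 17.5%, and 1 without the titles numbered 1 to 10, beside 12.4%. The cause was not tested. The count of genes higher was 0 throughout, beside shares of all expressed genes between 1.39% (pseudocount of 10) and 14.6% (title set 2). The one change of direction of a gene past the fold was Lrrk2 in title set 2, at a log2 ratio of 0.27. Leaving out each library in turn, an alternative chosen after seeing the data, gave Lrrk2 ratios between 0.244 (without experiment 46) and 0.651 (without control 51) and Vps13c ratios between 0.502 and 0.595. Over 15 alternatives, Vps13c, Dnajc6, Synj1 and Uchl1 were below 0 in 15, Lrrk2 and Fbxo7 in 14, Park7 and Pla2g6 in 13, Pink1 in 6 and Vps35 in 3. The median of all expressed genes was itself below 0 in each alternative, between -0.38 and -0.01. Vps13c and Synj1 were below that median in each. Dnajc6 was not among libraries with an ERCC share at or below the median, at -0.087 against -0.092. On mean log2(CPM + 1), Uchl1 at -0.34, Park7 at -0.27 and Pla2g6 at -0.36 were not. The median of the 10 genes ran between -0.54 and -0.17. The share of all genes past the fold downward was 24.9% with no filter beyond 3 counts and 7.09% at 30 CPM or more, and upward 20.3% and 4.86%. No paired analysis was possible because no result comes from a test and the numbers in the titles only name libraries. The Lrrk2 ratio in set 1 rests on 20 experiment counts, the fewest for any of the 10 genes in either set.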

Other observations

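Other genes linked to Parkinson disease or parkinsonism, 29 expressed ones apart from the 10, had a median log2 ratio of -0.18 pooled and -0.05 with equal weights. Of these, 5 were at least 1.5-fold lower and 2 higher by both weightings. Of all 9113 expressed genes, 1002 were that much lower and 708 that much higher, 7.77%. Lowest were Tmem175, a lysosomal potassium channel gene, at a ratio of 0.484, Gch1, for synthesis of tetrahydrobiopterin, at 0.497 (0.806 in set 1 and 0.383 in set 2), the lysosomal ATPase gene Atp13a2 at 0.521 and Th at 0.543. The remaining genes past the fold, named after their values were seen, were Scarb2, a lysosomal membrane receptor gene, at 0.624, Rab39b at 1.67 and Wdr45, an autophagy gene, at 1.54. Park2, the Parkin gene, had a pooled ratio of 0.693 and an equally weighted ratio of 0.955.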
